A study of Mus musculus with 13 samples.

Results

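Loss of KLF1 was described here as the contrast between mouse fetal livers with no intact Klf1 allele (Klf1 -/-) and livers with 1 intact allele (Klf1 +/-), both at 14.5 days post coitum. The members are the genes that the authors' cuffdiff table lists for this pair of genotypes, 1786 genes of the 3099 gene results that the table holds for 3 comparisons, and 2036 distinct genes appear in any of them. Both groups carry at least 1 null Klf1 allele, so no wildtype liver entered the mRNA comparison. Each genotype had 3 mRNA-seq libraries made from poly(A) RNA after globin transcripts had been depleted. Livers that pair the MommeD45 allele with a null allele (D45/-) were sequenced beside them, and wildtype livers were used for ChIP-seq of KLF1. The labels used here do not state how the null allele was made, the strain, or whether replicates were separate animals.

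KLF1 is a zinc finger protein of erythroid cells that binds CACCC-type sequences and is known as an activator of adult beta-globin and of many other red cell genes. At this stage most cells of the fetal liver belong to the red cell lineage, with megakaryocytes, granulocyte precursors, macrophages and hepatoblasts beside the erythroid cells. During erythroid maturation, cells make heme and hemoglobin, build the spectrin-based membrane skeleton, pass their last divisions and expel the nucleus.

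Each gene has 1 abundance per genotype in the authors' deposited table, in FPKM (a level corrected for transcript length and library size), so no spread between replicates can be given. The table holds only genes that the authors marked as significant at q under 0.05. "Lower" and "higher" mean lower or higher in -/- than in +/- by that test, and log2 ratios are -/- over +/-. A gene that is not listed may have been tested and not passed, or not tested. Klf1 itself had 34.8 FPKM in -/- and 378 in +/- (log2 ratio -3.44) per the authors' deposited table, with 398 in D45/-. Transcript of the targeted gene was thus not at 0 in the libraries labelled -/-, and which part of the gene the null allele lacks is not stated. Of the defining markers of red cell precursors, Epor, Alas2 and Tfrc were listed with at least 159 FPKM in +/- per the authors' deposited table, and Gata1 was not listed. The defining markers of hepatocytes, Alb and Afp, and of macrophages, Csf1r and Emr1, were not listed.

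The listed genes split evenly by direction and very unevenly by abundance. Per the authors' deposited table, 879 genes were lower and 907 higher, or 6.78% and 7.00% of the 12965 tests assumed for this comparison (13.8% together), so that 49.2% of the listed genes were lower. The lower genes had a median of 44.98 FPKM in +/- and 20.6 in -/- per the authors' deposited table, with a median log2 ratio of -1.03. The higher genes were scarce transcripts, with medians of 2.96 FPKM in +/- and 8.10 in -/- there and a median log2 ratio of 1.22. Of genes under 1 FPKM in +/-, 10 were lower and 209 higher (4.57% lower). The share that was lower was 11.9% at 1 to 5 FPKM, 40.3% at 5 to 20 FPKM, 83.9% at 20 to 100 FPKM and 91.6% at 100 to 500 FPKM. At 500 FPKM and above, 36 of 42 genes were lower (85.7%). These ranges use the +/- level, which is itself part of the ratio. A lower gene under 1 FPKM in +/- is under 1 FPKM in both genotypes. By the level in the higher genotype, the counts of lower and higher genes were 10 and 28 under 1 FPKM. They were 48 and 315 at 1 to 5 FPKM, 160 and 344 at 5 to 20, and 418 and 173 at 20 to 100. At 100 to 500 FPKM they were 207 and 35, and from 500 FPKM upward 36 and 12. Summed over the lower genes, the authors' deposited table gave 106274 FPKM in +/- and 42398 in -/-. The higher genes summed to 19806 FPKM in +/- and 53319 in -/- there. FPKM are shares of a library, so a fall in abundant transcripts can raise the values of the others, and the part this has in the lists was not tested.

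**Figure D1:**
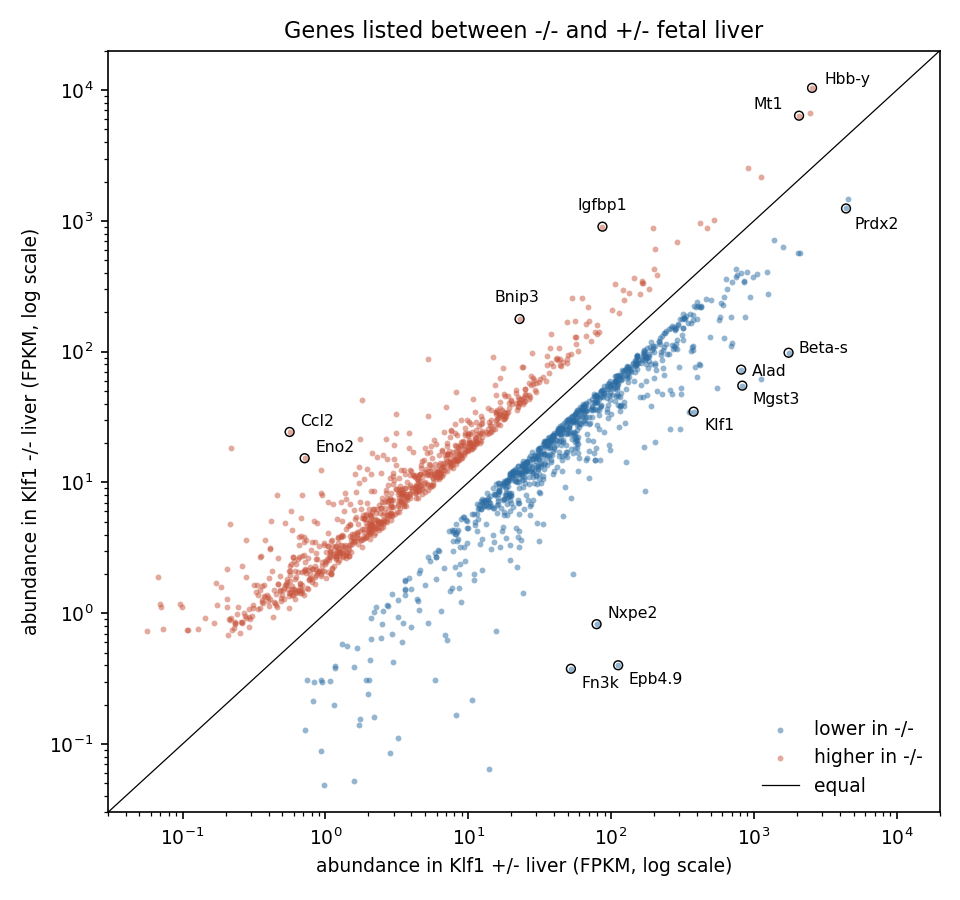
Abundance (FPKM, log scales) in Klf1 +/- livers on the x axis and in Klf1 -/- livers on the y axis for each listed gene above 0 in both genotypes, 1 point per gene, with the line of equal values. Lower genes (blue) lie mostly to the right, with a median of 44.98 FPKM in +/-, and higher genes (red) to the left, with a median of 2.96.

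The gap between the groups of points in the plot of abundances is the range of small changes that the test did not list: the smallest listed log2 ratios were 0.68 in size among lower and 0.71 among higher genes. A fold change of at least 2 (log2 of 1) was reached by 463 lower genes (52.7%) and 668 higher genes (73.6%). These shares are not matched for abundance, and among higher genes under 1 FPKM in +/- the smallest listed log2 ratio was 0.97. The median log2 ratios of lower and higher genes were -1.07 and 0.99 at 5 to 20 FPKM in +/-. They were -0.97 and 0.98 at 20 to 100 FPKM, and -0.96 and 1.07 at 100 to 500 FPKM. Log2 ratios past 3 in size were found for 39 lower and 34 higher genes, and past 4 for 19 and 12. The p-value reached its lowest printed value, 5e-05, for 724 genes (40.5%), so it does not rank the strongest genes.

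The sequences of 4 promoters show what lay under KLF1 in wildtype liver at genes that were lower without it. They are the 4 lower genes with the largest fall among those with a KLF1 peak summit inside the promoter window, 250 bases before to 50 after the gene's start, and a match to the CACCC-type motif CCNCNCCC there, with 1 promoter in the reference table and a locus length within 2% of RefSeq's. That last condition left out Fn3krp, which fell more than Rgcc and Gpr155. The promoters are from RefSeq (build GRCm38.p6), 5′ to 3′ on the gene's strand, and capitals mark each match, on the strand shown or as its reverse complement. Summit positions are distances from the start of the locus in the authors' own files (build mm9).
Beta-s: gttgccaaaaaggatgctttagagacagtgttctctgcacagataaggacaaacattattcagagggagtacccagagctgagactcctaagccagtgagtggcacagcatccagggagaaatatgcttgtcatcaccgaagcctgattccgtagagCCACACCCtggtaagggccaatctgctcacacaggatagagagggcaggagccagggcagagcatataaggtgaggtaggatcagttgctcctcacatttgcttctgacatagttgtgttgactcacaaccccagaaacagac
Icam4: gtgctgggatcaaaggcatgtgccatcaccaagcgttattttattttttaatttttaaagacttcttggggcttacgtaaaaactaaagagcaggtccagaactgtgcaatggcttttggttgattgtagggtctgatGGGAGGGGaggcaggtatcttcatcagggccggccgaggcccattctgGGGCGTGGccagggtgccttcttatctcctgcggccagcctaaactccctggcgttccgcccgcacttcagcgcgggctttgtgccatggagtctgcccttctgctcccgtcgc
Rgcc: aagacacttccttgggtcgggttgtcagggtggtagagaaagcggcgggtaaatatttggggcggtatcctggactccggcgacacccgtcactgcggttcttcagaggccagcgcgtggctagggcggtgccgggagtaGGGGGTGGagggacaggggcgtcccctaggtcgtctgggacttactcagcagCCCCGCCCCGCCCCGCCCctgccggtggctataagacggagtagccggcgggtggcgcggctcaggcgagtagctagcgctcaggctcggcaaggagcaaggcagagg
Gpr155: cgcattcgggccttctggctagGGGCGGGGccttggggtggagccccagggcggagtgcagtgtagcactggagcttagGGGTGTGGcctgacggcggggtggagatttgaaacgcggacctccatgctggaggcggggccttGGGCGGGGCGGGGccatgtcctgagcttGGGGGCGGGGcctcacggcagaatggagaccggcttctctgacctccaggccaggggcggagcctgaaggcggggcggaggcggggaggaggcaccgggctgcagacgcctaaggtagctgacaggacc
Beta-s, an adult beta-globin gene (RefSeq symbol Hbb-bs, chr7:103827879-103828178, minus strand), had 98.2 FPKM in -/- and 1749 in +/- per the authors' deposited table (log2 ratio -4.16). Its summit lay 73 bases upstream of the start, and its single motif match, the known CACCC box, began 93 bases upstream of the RefSeq start. Icam4, an adhesion molecule of red cells (chr9:21029182-21029481, plus strand), had 25.5 against 259 FPKM per the authors' deposited table. The summit there was 29 bases downstream of the start, with matches beginning 112 and 64 bases upstream. Rgcc, a cell cycle regulator (chr14:79301586-79301885, minus strand), had 4.26 against 22.7 FPKM per the authors' deposited table. Its summit was 58 bases upstream, within a run of matches that overlap each other. Gpr155 (chr2:73386431-73386730, minus strand), a multipass membrane protein, had 0.788 against 3.99 FPKM per the authors' deposited table, with the summit 214 bases upstream and 6 matches.

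A KLF1 peak in wildtype liver was more often near a lower gene than near a higher one. Of the 879 lower genes, 261 (29.7%, exact Clopper-Pearson 95% interval 26.7 to 32.8) had 1 of the 1203 peaks within 10 kb of the locus, against 39 of the 907 higher genes (4.30%, 3.08 to 5.83). The intervals cover counting error only and treat genes as independent, which neighbours are not. The share rose with the size of the fall: it was 22.1% for log2 ratios from -1 to 0, 30.3% from -1.5 to -1, 39.4% from -2 to -1.5, 44.9% from -3 to -2, and 53.8% at or below -3. Among higher genes it lay between 2.94% and 6.74% in every range of log2 ratio, with no order by size. The binding data are 1 library from 2 pooled replicates, so they have no replicate check.

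**Figure D2:**
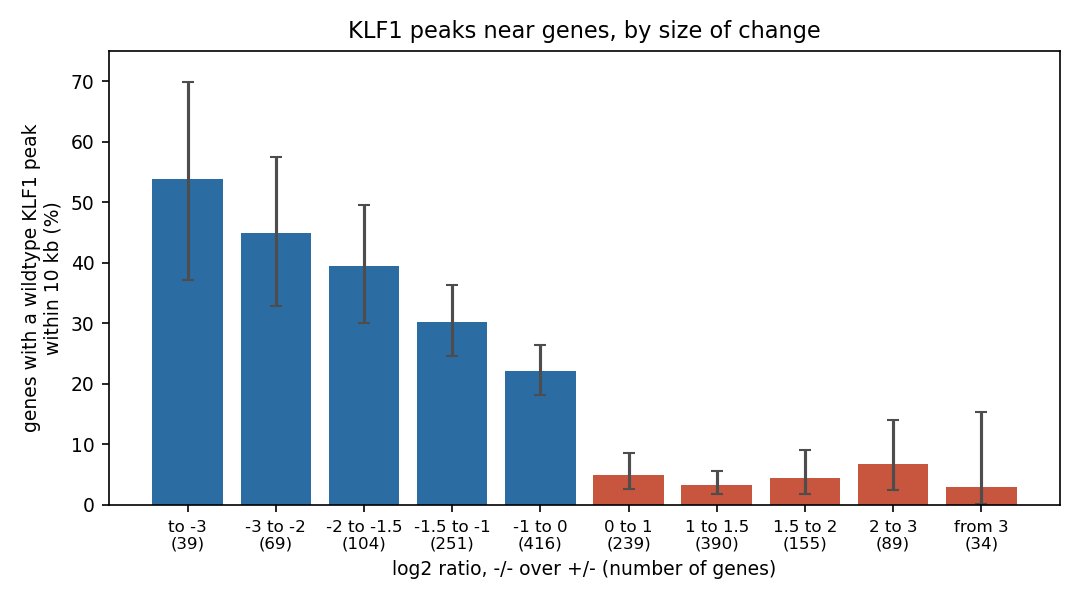
Percentage of listed genes with a wildtype KLF1 peak within 10 kb of the locus (y axis) by range of log2 ratio, -/- over +/- (x axis, number of genes below each bar); bars are shares and whiskers exact 95% intervals for counting error. The share is 53.8% for the 39 genes that fell most and 22.1% for those that fell least, and the bars of the higher genes stay at or under 6.74%.

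Abundance and peak share moved together among the lower genes, so the directions were also set side by side within ranges of FPKM in the higher genotype. At 5 to 20 FPKM, 23.8% of 160 lower genes and 3.49% of 344 higher genes had a peak within 10 kb. At 20 to 100 FPKM the shares were 28.2% of 418 and 7.51% of 173. At 100 to 500 FPKM they were 34.3% of 207 and 8.57% of 35, and at 500 FPKM and above 61.1% of 36 and 25.0% of 12. The intervals of the last pair, 43.5 to 76.9% and 5.49 to 57.2%, overlap, and those of the other 3 do not. Lower genes had shorter loci than higher genes (medians of 17.2 and 26.3 kb), and the part of locus length in the shares was not tested. Of the peaks, 323 (26.8%) lay within 10 kb of any listed gene.

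Some peaks stood far above the rest at genes of either direction. By the authors' fold enrichment over input, the strongest peaks inside lower genes were in Dedd2 (42.9), Phyhip (37.2), Herc1 (33.6), Arhgef12 (32.9) and Agpat4 (23.9). Dedd2, a death effector domain protein, had 15.7 against 49.5 FPKM per the authors' deposited table. Herc1, a very large ubiquitin ligase, fell from 43.6 to 17.2 FPKM there. Among higher genes the strongest was in Pgam1 (39.5), a glycolytic mutase with 335 FPKM in -/- and 168 in +/- per the authors' deposited table. The peaks in the metallothionein genes Mt1 (8.08) and Mt2 (6.77), which bind zinc and other metals, were next to each other, and both genes were higher. Mt1 had 6375 against 2071 FPKM and Mt2 6669 against 2486 per the authors' deposited table, and these are among the 10 largest gains in FPKM.

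A promoter of the reference table could be matched for 721 lower genes (82.0%) and 704 higher genes (77.6%). A peak summit lay in the window at 71 of the 721 (9.85%, interval 7.77 to 12.3), of which 65 also held CCNCNCCC. Among the matched higher genes 14 had a summit there, 12 of them with CCNCNCCC, and no share is given because fewer than 80% were matched. These 14 genes, named after their values were seen, include Mt1, Mt2, Pgam1, Vcl, Idi1, Btg1, Cry2, Ankrd37 and Eif4a2. CCNCNCCC was found in 73.6% of the lower genes' promoters and in 51.9% of the promoters of all 27025 genes of the reference table. CCACNCCC, a subset of it, was found in 26.8% and 19.7%. The GATA-type sequence AGATAA was in 11.5% against 12.7%, and TATAAA in 8.04% against 15.7%, on either strand. For the 85 matched genes that were lower by at least 2 on the log2 scale, the shares were 69.4% for CCNCNCCC, 32.9% for CCACNCCC, 15.3% for AGATAA and 15.3% for TATAAA. The lower genes' promoters were richer in G and C, with a median of 61.7% against 52.7%, and the part of base composition in the motif shares was not tested.

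The 15 genes that fell most, with a minimum of 5 FPKM in either genotype, were of several kinds. Epb4.9, which encodes the actin bundling protein dematin of the membrane skeleton, was 280-fold lower, at 0.400 against 112 FPKM per the authors' deposited table. Paqr6, a receptor of the progestin and adipoQ family, had 0.166 against 8.20 FPKM, and Tspo2, a relative of the mitochondrial translocator protein, had 1.98 against 54.3, per the authors' deposited table. Mgst3, a microsomal glutathione transferase, had 55.0 against 829 FPKM per the authors' deposited table. Phospho1, a phosphatase of phosphocholine, had 0.729 against 15.8 FPKM per the authors' deposited table, where it shares its locus entry with Abi3. Artn, a ligand of the GDNF family, had 0.308 against 5.86 and Ubac1, a ubiquitin-associated protein, 25.6 against 305 FPKM per the authors' deposited table. The others of the 15 were Sowaha, Fn3k, Nxpe2, Slc2a4, Slc43a1, Slc22a4, Beta-s and the merged entry for Hbb-b1 and Hbb-b2. Of these 15 genes, 7 had a KLF1 peak within 10 kb, against 0 of the 15 that rose most. Over all lower and all higher genes the shares were 29.7% and 4.30%, so the 0 is near that of higher genes.

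**Figure D3:**
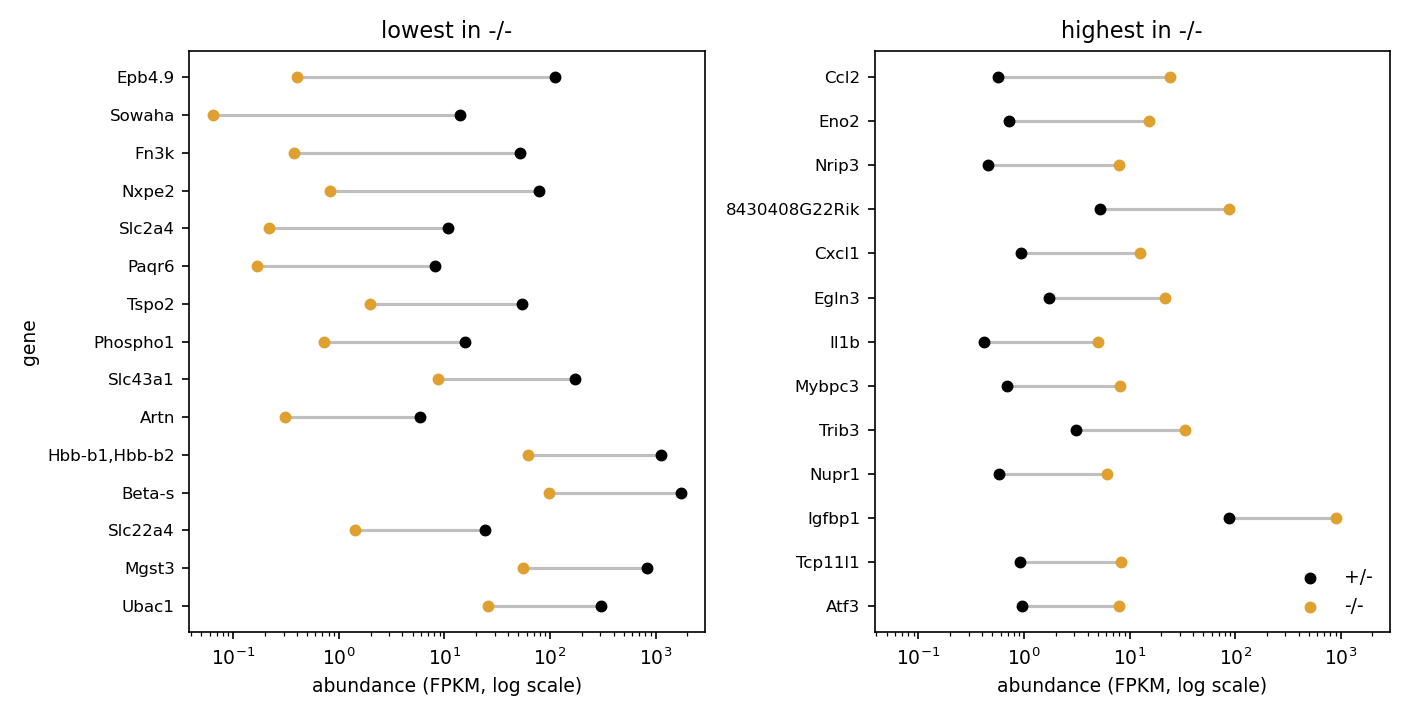
Abundance (FPKM, log scale) of genes among the 15 with the lowest and the 15 with the highest log2 ratio, with a minimum of 5 FPKM in either genotype; black points are +/- and yellow points -/- livers, 1 value per genotype. Epb4.9 spans 0.400 to 112 FPKM, and Igfbp1 is the most abundant of the genes on the right, at 904 FPKM in -/-.

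Heme synthesis fell along its whole length. Of 19 genes for its enzymes and carriers, 11 were lower and 0 higher per the authors' deposited table, the median log2 ratio was -1.51, and 8 of the 11 had a KLF1 peak within 10 kb. Alas2, the first enzyme of the pathway in red cells, had 636 against 1607 FPKM per the authors' deposited table and was one of the 3 without a peak that near. Urod had 345 against 850 and Ppox 72.3 against 206 FPKM per the authors' deposited table. The inner membrane carriers Slc25a39 (log2 ratio -1.77) and Slc25a38 (-0.95), the latter a glycine carrier, were lower too per the authors' deposited table. Of 24 genes of iron uptake, storage and iron-sulfur assembly, 7 were lower and 1 higher. Tfrc, the transferrin receptor, had 45.3 against 159 FPKM per the authors' deposited table, and Steap3, the endosomal ferric reductase, 34.9 against 115. Glrx5, of iron-sulfur cluster assembly, had 179 against 397 FPKM per the authors' deposited table. The higher gene, Cybrd1, is a ferric reductase known from the gut surface, with 9.91 against 1.71 FPKM per the authors' deposited table.

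The membrane skeleton list had 12 of 25 genes lower and 2 higher, and 7 of the 12 had a KLF1 peak within 10 kb. Besides Epb4.9, per the authors' deposited table, the log2 ratio was -2.71 for Ank1 (ankyrin), -2.58 for Tmcc2, -2.35 for Add2 (adducin) and -2.27 for Epb4.2 (protein 4.2). The spectrin gene Sptb fell less, to 135 against 313 FPKM per the authors' deposited table. Slc4a1, the band 3 anion exchanger, was 1 of the 10 largest losses, with 568 against 2086 FPKM per the authors' deposited table. The higher members, Tmod3 (0.72) and Tpm4 (0.77), belong to actin filaments outside red cells as well. Surface proteins had 13 of 26 genes lower and 2 higher per the authors' deposited table. Darc, a chemokine receptor that carries a blood group in humans, had 2.57 against 19.7 FPKM per the authors' deposited table, and Cd24a 185 against 873. Ermap, Kel, Art4 and Smim1, which carry others in humans, had log2 ratios between -2.39 and -1.37 there. Btn1a1, a butyrophilin, was higher, at 28.0 against 8.08 FPKM per the authors' deposited table.

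The list of channels and pumps went both ways, with 6 of 35 genes lower and 5 higher. The 5 include Car1, which is a carbonic anhydrase. The lower ones per the authors' deposited table were Kcnn4, the Gardos potassium channel (18.6 against 170 FPKM), Rhd, Atp2b4, Aqp3, Atp7b and Piezo1, a mechanosensitive channel (35.6 against 63.4 FPKM). By gene symbol, 8 potassium channel genes were listed, of which Kcnn4 alone was lower. Kcne3, an accessory subunit of such channels, had 15.6 against 2.30 FPKM per the authors' deposited table. All 3 listed carbonic anhydrase genes were higher per the authors' deposited table, with Car1 at 257 against 62.4 FPKM. Of 40 listed solute carrier genes, 23 were lower and 17 higher.

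Red cell redox enzymes carried the largest losses in FPKM. Per the authors' deposited table, Prdx2, a peroxiredoxin, had 1245 against 4415 FPKM and Gpx1, a glutathione peroxidase, 1470 against 4523. Blvrb, a biliverdin and flavin reductase, fell from 2045 to 572 FPKM there. Of the 40 genes in the list of nucleotide, lipid and sugar enzymes of red cells, 9 were lower and 2 higher. The 9 include Prdx2, Gpx1 and Blvrb themselves, and also Gss and Cyb5r3. Fn3k, a kinase of glycated proteins, and its relative Fn3krp fell by 7.12 and 2.54 on the log2 scale per the authors' deposited table. The Fn3k value in -/- was near 0, at 0.376 FPKM, and with 1 FPKM added to both genotypes its log2 ratio was -5.28. Of the 10 genes with the largest losses, 8 had a KLF1 peak within 10 kb, against 3 of the 10 with the largest gains. Globin values come after globin depletion and from near-identical copies, so their size is uncertain. Within that limit, globin genes of embryonic red cells went both ways. Of these, Hba-x had 274 against 1249 FPKM per the authors' deposited table, and Hbb-bh1 and Hbb-y were among the 10 largest gains.

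The listed genes of the late steps of maturation were mostly lower. Of 34 ubiquitin ligases and conjugating enzymes, 13 were lower and 1 higher per the authors' deposited table. Rnf123 had 28.4 against 124 FPKM, Trim10 129 against 491 and Ube2c, which acts with the anaphase-promoting complex, 175 against 565 per the authors' deposited table. Trim58, known for dynein loss in maturing red cells, had 10.6 against 31.4 FPKM there. All 8 listed Ube2 genes, all 5 listed F-box genes and 7 of 8 listed ubiquitin-specific proteases were lower per the authors' deposited table. Among all listed genes 49.2% were lower, and 83.9% of those with 20 to 100 FPKM in +/-. Unlisted members of these families were not counted, and some listed ones, such as Ube2c and Fbxo9, are also among the 13. Of 26 genes of nuclear condensation and enucleation, 10 were lower and 1 higher. Xpo7, a nuclear exporter, had 9.31 against 47.9 FPKM and Ranbp10 47.0 against 178 per the authors' deposited table. The nuclear envelope genes Lbr, Lmnb1 and Lmna had log2 ratios between -1.31 and -0.85 there. Of 26 autophagy genes only Ulk1 was lower, at 26.0 against 44.8 FPKM per the authors' deposited table.

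Many genes of the division machinery were lower. DNA replication and nucleotide supply had 23 of 40 genes lower and 0 higher, and the median log2 ratio was -0.91 per the authors' deposited table, against -1.03 for all lower genes. Rrm2, a subunit of ribonucleotide reductase, had 343 against 848 FPKM, and Pcna, the sliding clamp, 372 against 750 per the authors' deposited table. Mcm2, Mcm3, Mcm4 and Mcm7 of the replicative helicase lay between -0.89 and -0.81 on the log2 scale there. G1 to S control had 15 of 31 lower and 2 higher, with a median of -1.12 on the log2 scale over the lower ones per the authors' deposited table. All 5 listed E2F genes were lower per the authors' deposited table, with E2f2 at 20.6 against 203 FPKM and E2f4 at 80.7 against 413. The cyclin-dependent kinase inhibitors moved apart: Cdkn2c (-1.98) and Cdkn2d (-1.65) were lower, and Cdkn1a, the p53 target p21, was higher at 11.6 against 3.62 FPKM per the authors' deposited table. Mitosis had 9 of 35 genes lower and 0 higher, among them Aurka, Plk1, Cdc20 and Birc5, with log2 ratios between -0.99 and -0.86 per the authors' deposited table. At q under 0.01 the replication list had 15 and the mitosis list 5 lower genes.

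Transcription factors of red cells and early progenitors had 13 of 47 genes lower and 7 higher. A KLF1 peak lay within 10 kb of 7 of the 13 and 0 of the 7. Over all lower and all higher genes those shares were 29.7% and 4.30%. Lower per the authors' deposited table were Lmo2 (76.5 against 300 FPKM), Tal1 (151 against 319) and Ldb1 (90.7 against 183), which form a complex with GATA1, and its cofactor Zfpm1 (222 against 381). Zbtb7a (12.2 against 39.9 FPKM per the authors' deposited table), Bcl11a and Sox6, which repress embryonic or fetal globin genes, were lower too. Higher were Fli1, known from megakaryocytes, Gfi1, known from granulocytes, and Meis1, Erg, Mycn, Klf6 and Cebpb, with log2 ratios between 0.84 and 1.49 per the authors' deposited table. At q under 0.01 only 2 of those 7 remained listed. In erythropoietin signalling, the receptor gene Epor had 96.6 against 255 FPKM and its survival target Bcl2l1 107 against 281 per the authors' deposited table. That list, of 32 genes, had 4 lower and 5 higher, among them the kinase gene Lyn (34.6 against 15.7 FPKM per the authors' deposited table) and the phosphatase genes Ptpn6 and Inpp5d. Fam132b, which encodes erythroferrone, had 0.566 against 1.41 FPKM per the authors' deposited table.

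**Figure D4:**
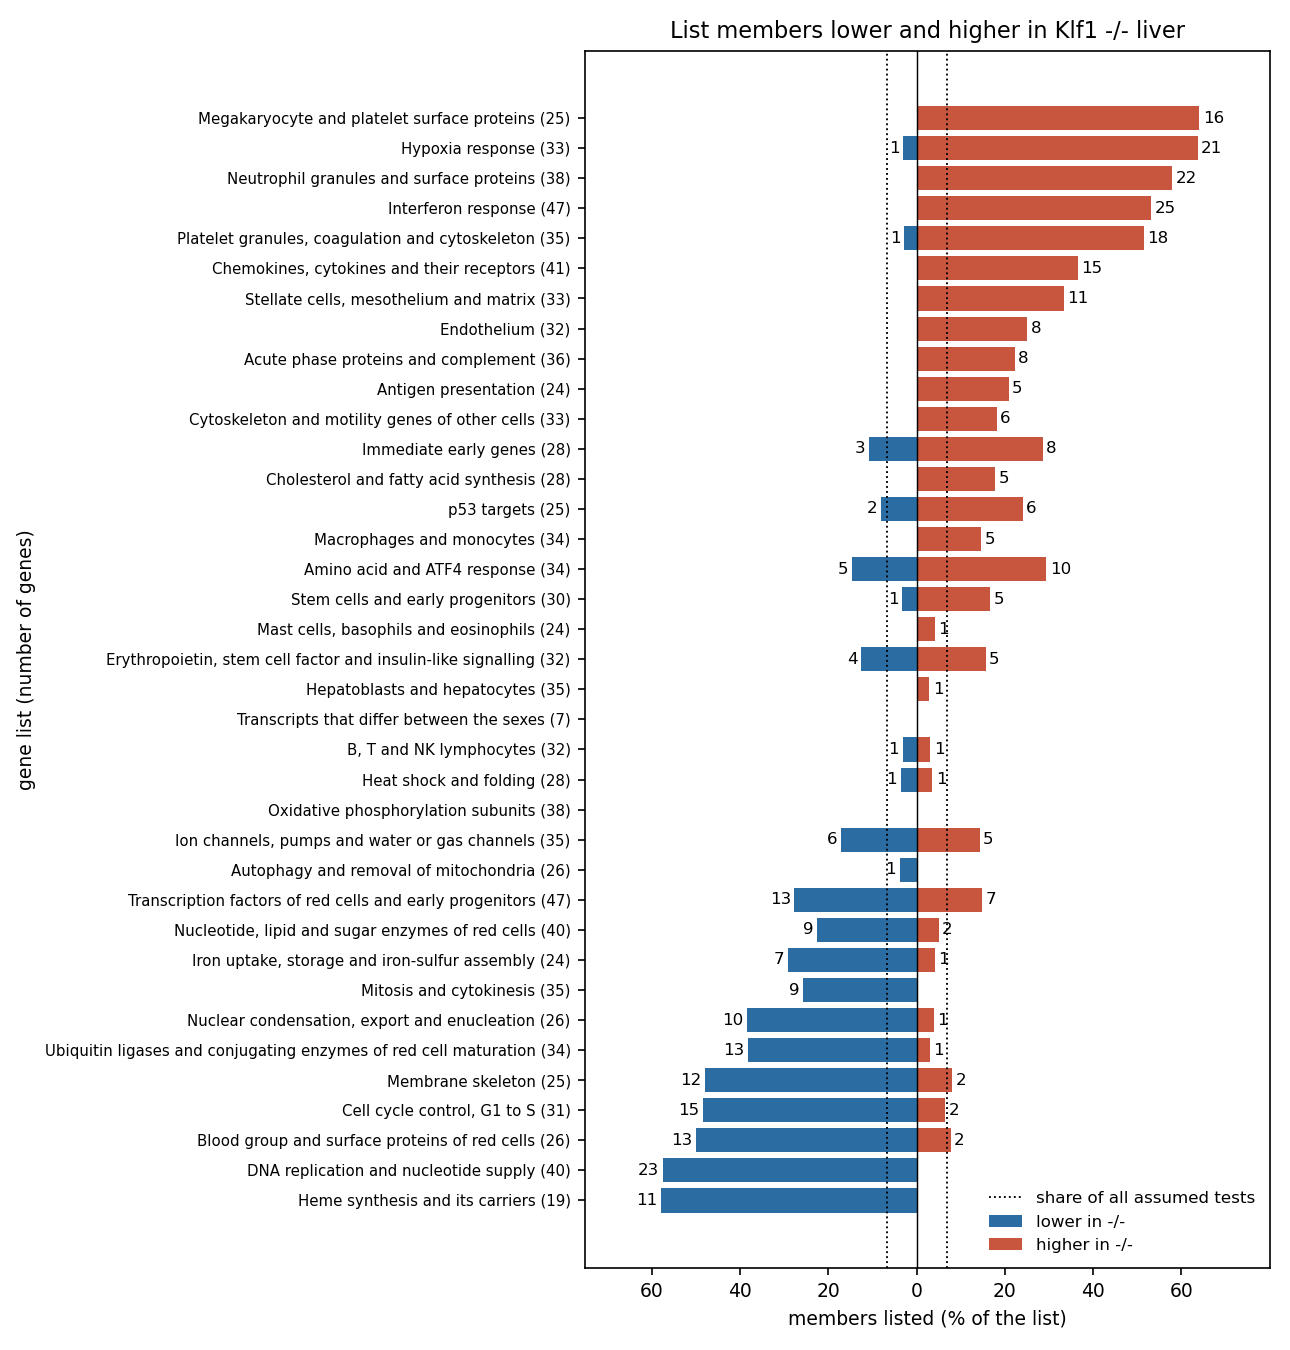
Share of each gene list that was lower (blue, left) or higher (red, right) in -/- livers, in percent of the list's genes on the x axis; numbers at the bars are genes, numbers in brackets list sizes, and dotted lines the 6.78% and 7.00% of all assumed tests. Heme synthesis and DNA replication reach furthest to the left, with 11 of 19 and 23 of 40 genes, and platelet surface proteins and the hypoxia response furthest to the right, with 16 of 25 and 21 of 33.

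Genes that respond to low oxygen rose together. The hypoxia list had 21 of 33 genes higher and 1 lower, and the median log2 ratio was 1.86 over the higher ones per the authors' deposited table, against 1.22 for all higher genes. Sensing and feedback were represented by Egln3, a prolyl hydroxylase that marks HIF for destruction (21.5 against 1.74 FPKM per the authors' deposited table). Among secreted products, Adm (adrenomedullin) had 16.8 against 2.11 and Vegfa 62.9 against 16.7 FPKM per the authors' deposited table. Glycolysis genes included Eno2 (15.3 against 0.716 FPKM per the authors' deposited table), Pgk1 (610 against 203), Aldoa (2533 against 904) and Hk2 (16.9 against 5.11). Bnip3, a mitochondrial receptor of mitophagy, had 178 against 22.9 FPKM per the authors' deposited table, and Ero1l, an oxidase of the endoplasmic reticulum, 91.2 against 14.9. The single lower member was the glucose transporter gene Slc2a1, which is also a red cell gene, at 111 against 690 FPKM per the authors' deposited table. Slc2a3, another glucose transporter, was higher (98.6 against 27.9 FPKM per the authors' deposited table). Igfbp1, a liver protein that binds insulin-like growth factors, had 904 against 87.1 FPKM per the authors' deposited table, 1 of the 10 largest gains. All 22 listed members also had q under 0.01. A KLF1 peak lay within 10 kb of 1 of the 21 higher ones, Ankrd37, which is near the 4.30% of all higher genes. Cox4i2, an oxygen-regulated subunit of cytochrome oxidase, had 12.8 against 1.97 FPKM per the authors' deposited table. Of the 38 oxidative phosphorylation genes of the list 0 were listed; outside it, the respiratory chain genes Ndufb7 was lower (218 against 423 FPKM) and Cox6b2 higher (427 against 200) per the authors' deposited table.

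The amino acid and ATF4 response went both ways. Of its 34 genes, 10 were higher and 5 lower per the authors' deposited table. Among the higher genes were regulators of stress responses: Trib3 had 33.4 against 3.13 FPKM, Ddit4 21.6 against 2.64, Atf3 8.02 against 0.949 and Nupr1 6.08 against 0.577 per the authors' deposited table. Stc2, a secreted glycoprotein, had 23.8 against 3.14 FPKM there. Of the lower members, 4 were amino acid transporter genes, Slc1a5 (17.6 against 98.5 FPKM per the authors' deposited table), Slc6a9, Slc7a5 and Slc7a1, and the other was Ppp1r15a, a regulatory subunit of a phosphatase induced by stress (105 against 291 FPKM per the authors' deposited table). The transporter genes Slc1a4 and Slc7a3 were higher. Of 25 p53 targets 6 were higher and 2 lower, and at q under 0.01 these counts were 3 and 1. Jun (38.0 against 7.00 FPKM) and Fos (3.85 against 0.712) were among 8 of 28 immediate early genes that were higher per the authors' deposited table, and Dusp1 among 3 that were lower (3.83 against 22.4).

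Several inflammatory genes were higher. Of 41 chemokines, cytokines and receptors, 15 were higher and 0 lower, from the platelet chemokine gene Pf4 with 469 FPKM in +/- to genes listed at 0 there per the authors' deposited table. Ccl2, which attracts monocytes, had 24.3 against 0.562 FPKM and Cxcl1, which attracts neutrophils, 12.5 against 0.933 per the authors' deposited table. Il1b had 5.08 against 0.415 FPKM there. Ccl7 and Cxcl2 are listed at 0 in +/-, with 3.22 and 2.96 FPKM in -/- per the authors' deposited table. Fgf23, a hormone of phosphate balance, is also listed at 0 in +/- and had 6.92 FPKM in -/- per the authors' deposited table. The interferon list had 25 of 47 genes higher and 0 lower; the median log2 ratio was 1.65 per the authors' deposited table. Its most abundant members per the authors' deposited table were Ifitm3 (76.1 against 24.3 FPKM), Bst2 (50.8 against 21.5), Ifitm1 (25.4 against 7.59) and Isg15 (24.0 against 9.42). All 7 listed oligoadenylate synthetase genes were higher, none above 4.85 FPKM per the authors' deposited table. With a minimum of 5 FPKM in the higher genotype 11 members were left, and with q under 0.01 there were 16. Antigen presentation had 5 of 24 genes higher and 0 lower, of which 1 had q under 0.01. Of the 25 interferon and 15 chemokine genes, 0 had a KLF1 peak within 10 kb. Among all higher genes the share was 4.30%, and a count of 0 in so few genes is near it.

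The listed markers of megakaryocytes and of neutrophils were higher by similar amounts, near those of all higher genes in the same ranges of abundance. In a whole tissue, more cells of a type and more RNA per cell cannot be told apart, nor can fewer cells and less RNA for the genes that fell. Of 25 surface proteins of megakaryocytes and platelets, 16 were higher and 0 lower, and the median log2 ratio was 1.06 per the authors' deposited table. Itga2b, the platelet integrin subunit, had 129 against 56.5 FPKM and Itgb3 45.8 against 18.2 per the authors' deposited table. Of 35 granule, coagulation and cytoskeleton genes 18 were higher, with Pf4 at 879 against 469 FPKM and Thbs1 at 220 against 68.7 per the authors' deposited table. The lower member, Nfe2, is a transcription factor of both megakaryocytes and red cells. Of 38 neutrophil genes 22 were higher and 0 lower, and the median log2 ratio was 1.04 per the authors' deposited table. The medians of 1.06 and 1.04 cover listed genes only. All higher genes had medians of 0.99 at 5 to 20 FPKM in +/- and 0.98 at 20 to 100 FPKM. S100a8 had 961 against 417 FPKM and Mpo, of the primary granules, 346 against 165 per the authors' deposited table. At q under 0.01 the higher counts were 9, 11 and 14 for the 3 lists.

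Other cell types had fewer listed markers. Macrophage and monocyte markers had 5 of 34 higher and 0 lower, including Hmox1 (247 against 123 FPKM per the authors' deposited table), the heme-degrading oxygenase. Endothelial markers had 8 of 32 and stellate, mesothelial and matrix genes 11 of 33 higher, with 0 lower in each. Of these, Vwf and Timp3 are also in the platelet granule list, Esam in the progenitor list and Erg in the list of transcription factors. Flt1, a VEGF receptor, had 8.76 against 2.65 FPKM and Col6a1 22.4 against 7.43 per the authors' deposited table. Mast cell, basophil and eosinophil markers had 1 of 24 higher, lymphocyte markers 1 lower and 1 higher of 32, and hepatoblast and hepatocyte markers 1 of 35 higher. These last 3 shares lie under the 7.00% of all tests that were higher. Acute phase and complement genes had 8 of 36 higher and 0 lower, such as Serpina3n (6.92 against 1.97 FPKM per the authors' deposited table). They include Fgg, which is also the listed hepatocyte marker, and Lcn2, which is also in the neutrophil list. Stem cell and progenitor markers had 5 of 30 higher and 1 lower. Of the 7 transcripts that differ between the sexes, 0 were listed, and no listed gene was on the Y chromosome. Genes of cholesterol synthesis had 5 of 28 higher, with 2 at q under 0.01.

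Genes next to each other on a chromosome often moved the same way. Pairs of consecutive listed genes less than 10 kb apart had the same direction in 82.6% of 144 cases. The share was 70.0% of 327 pairs at 10 to 100 kb, 57.9% of 712 at 100 kb to 1 Mb and 53.7% of 583 beyond 1 Mb. Whether reads were counted by strand is not stated, and reads of overlapping loci cannot be told apart without it. The longest unbroken runs of lower genes held 17 genes on chromosome 4, from Acot11 to Cdc20, and 16 on chromosome 8, from Scoc to Adcy7. The run on chromosome 8 contains Klf1 itself. Within 4 Mb of Klf1 there were 16 other listed genes, 15 lower and 1 higher, against 49.2% lower among all listed genes. Prdx2, whose locus starts at 67.7 kb from that of Klf1, and Lyl1, a factor related to Tal1 at -200.5 kb on the other side (82.4 against 202 FPKM per the authors' deposited table), were lower too. Adcy7, an adenylyl cyclase, had 16.0 against 45.6 FPKM there, and the higher gene was Inpp4b, at 2.11 against 0.903. The 10 neighbours with a D45/- value include Prdx2 (3208 FPKM) and Inpp4b (0.800) per the authors' deposited table. Whether DNA linked to the null allele differs between the genotypes is not stated in the labels, and its part was not tested.

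**Figure D5:**
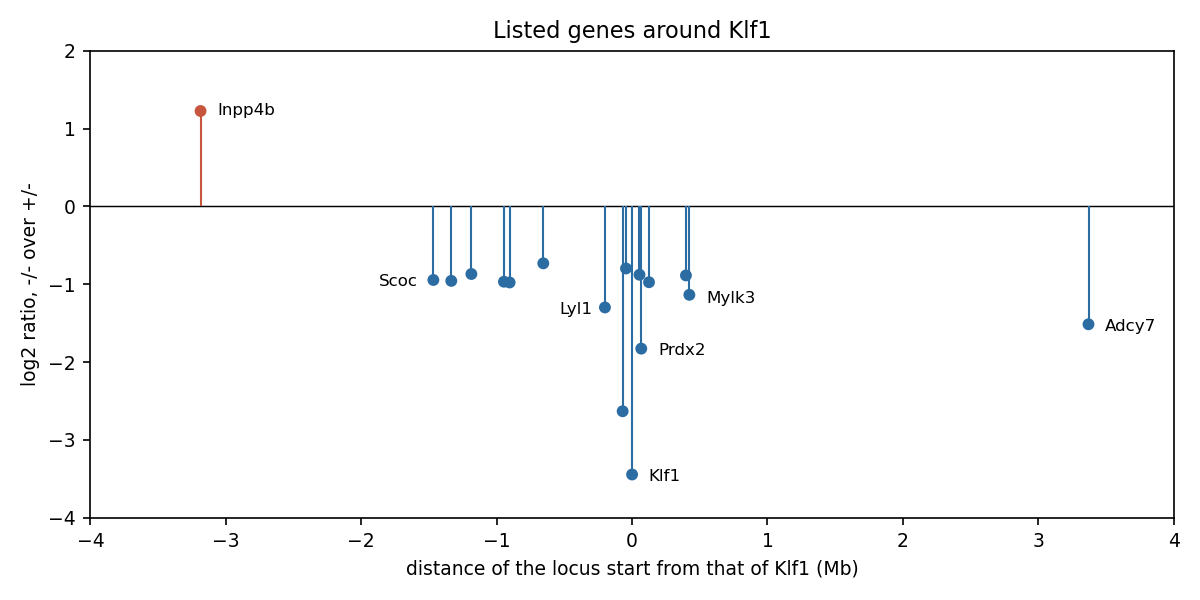
Log2 ratio, -/- over +/- (y axis), of listed genes by the distance of their locus start from that of Klf1 in Mb (x axis), 1 line and point per gene, blue for lower and red for higher; some of the genes are named. Of the 16 genes around Klf1, 15 lie below 0, and Inpp4b lies above it.

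Chromosomes differed in the balance of directions. On chromosome 15, 37 of 53 listed genes were lower (69.8%) and on chromosome 4, 79 of 122 (64.8%). The lowest shares were on chromosome 13, with 17 of 54 (31.5%), and on the X chromosome, with 15 of 47 (31.9%). By gene family, the 9 listed mitochondrial ribosomal protein genes were all lower, with a median log2 ratio of -0.88 per the authors' deposited table, and 0 genes of the cytosolic ribosome were listed. All 7 listed serpin, 6 listed integrin and 5 listed collagen genes were higher. Only the listed members of a family were counted, and 49.2% of all listed genes were lower. Of 8 tubulin genes 6 were lower, and the higher ones were Tubb1 of platelets and Tuba1a.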

How the data were processed

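Poly(A) mRNA of fetal liver, in 6 libraries and 3 per genotype, was sequenced after globin depletion, per the labels' protocols, and the reads were mapped with TopHat2 2.0.10 to mm9, per the submitters' processing notes. The deposited table of the authors' cuffdiff comparisons gives for each significant gene 1 FPKM per genotype (replicates combined), a log2 ratio, a test score, and a p-value and q-value, per the file headers and the series' design text; the values fit FPKM, but no header names the unit. The sources used here do not state cuffdiff's version, options or annotation. Depth per library is unknown, so no precision can be given. The authors' p-values measure the spread between samples that the labels do not describe as separate animals or litters.

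Wildtype KLF1 peaks come from 1 ChIP library of 2 pooled replicates, aligned with Bowtie2, with duplicates marked by Picard and peaks called by MACS2 against input, per the submitters' processing notes and the deposited description. The deposited peak list gives pileup signal, -log10 p-values and fold enrichment, which were used only to describe or filter peaks. The second peak list was not used here.

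Genotypes were taken from the codes that the series' design text explains, and log2(-/- over +/-) was computed from the deposited abundances; no pseudocount enters the main values. The number of tests was derived from the deposited p and q (q times rank over p gave 38893.9 to 38894.1, or 38894 over 3 comparisons, taken as 12965 each). No test was added, because replicate values were not analysed here. Peaks were matched to loci in mm9 by distance, and 1 base counted as overlap. Promoters were matched by symbol to RefSeq windows of GRCm38.p6 (721 and 704 genes matched), and no coordinate was converted between builds. No share is given over a set with fewer than 80% of members matched. The selection and counting steps were tested on simulated tables. Calculations used Python 3.11.15, pandas 2.3.3 and scipy 1.17.1.

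The members and the 37 gene lists (1096 distinct genes, of which 354 were listed, 150 lower and 204 higher) were chosen with earlier results of these data known, so counts describe them and support nothing by themselves. Genes are named by rule: Klf1, the 15 lowest and 15 highest at 5 FPKM or more, the 10 largest losses and gains in FPKM, up to 5 members per list, up to 3 per family, genes at 0 in one genotype, the 5 genes per direction with the strongest peak inside, and the neighbours of Klf1. Some genes that this rule selects are not reported here. Further list members, and the families and chromosomes singled out, were chosen after their values were seen. Alternatives were q under 0.01, minimum abundances of 1 and 5 FPKM, a pseudocount of 1 FPKM, q recomputed within the comparison, and other peak distances, peak strengths and motifs.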

Additional observations from a re-analysis of the deposited data

How the results depend on the processing

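With q under 0.01 the listed genes fell from 879 lower and 907 higher to 558 and 490, and the higher members of the gene lists from 204 to 135. A minimum of 5 FPKM in the higher genotype left 564 higher genes, and a log2 change of at least 1 with a pseudocount of 1 FPKM left 391 lower and 352 higher. Recomputing q within the comparison kept all 1786 genes. It could not drop any, because the comparison holds 1786 of the 3099 listed results but only 12965 of the 38894 assumed tests. The share of lower and of higher genes with a KLF1 peak was 19.0% and 2.09% for overlap, 23.3% and 2.65% within 1 kb, 43.2% and 11.5% within 50 kb, and 16.4% and 2.09% for peaks of at least 5 fold, so lower genes had the higher share in each. The motif share of lower promoters was 26.8% for CCACNCCC. Of 261 named genes, 258 were above 0 in both genotypes; 210 of them had q under 0.01, and a pseudocount cannot turn the direction. Of 106 list counts, 28 moved by more than 1.5 times. How depth limits these results is unknown. No paired analysis was possible because the deposited table gives 1 value per genotype, and for the same reason no replicate could be left out.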
